A study of Mus musculus with 19 samples.

Results

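The 7 genes described here are Pramel6, Pramel7, Pramef12, Crxos, Tcl1, Khdc3 and Ooep, 3 genes of the PRAME family and 4 other genes known from the oocyte, the early embryo and naive stem cells. They were chosen from measured values of this study, because Pramel6, Crxos and Tcl1 were much lower after the change of cell state or differed between the cell lines. They are 7 of 54119 genes obtained by summing the transcript values of the deposited table. All 7 had a TPM (transcripts per 1000000 transcripts measured) of 1 or more in at least 3 libraries and so were among the 14972 genes tested. The changes of state and the differences between lines are therefore given as descriptions, without a test. Tests are given only for Tet3-/- against XX cells of the same state. These use libraries that also entered the choice, so for Pramel6, Crxos and Tcl1 they are no independent support.

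Total RNA was sequenced from mouse embryonic stem cells (mESC) and from epiblast-like cells (EpiLC) made from them, in 19 libraries of 6 groups. The XX groups were wildtype LF2 cells (3 mESC and 3 EpiLC libraries), the XY groups were wildtype E14 cells (3 and 3), and the Tet3-/- groups were LF2 cells without Tet3 (4 mESC libraries, #1 to #4, and 3 EpiLC libraries, #1, #3 and #4). All mESC were kept in N2B27 with LIF and inhibitors of the kinases GSK3 and MEK1/2, and all EpiLC had received FGF5 and Activin A without LIF for 5 days. The question was whether TET3, an enzyme that oxidises 5-methylcytosine, is required when mESC turn into EpiLC. Each sex was represented by 1 line, so sex and line cannot be told apart, and the labels do not say how Tet3 was deleted or whether the libraries of a group came from separate cultures, so the p-values measure only the spread between these libraries.

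PRAME-family proteins are built of leucine-rich repeats, and the family is large and clustered in the mouse genome. PRAMEL7 is known from the inner cell mass and naive stem cells, where it joins a CUL2 ubiquitin ligase and promotes loss of UHRF1, the cofactor of maintenance DNA methylation. Crxos (also called Egam1) encodes a homeobox protein of the preimplantation embryo and of stem cells. TCL1 binds the AKT kinases and raises their activity, and it promotes the self-renewal of stem cells. KHDC3 (FILIA) and OOEP (FLOPED) are KH-domain proteins of the subcortical maternal complex, an assembly of the oocyte and early embryo that also holds NLRP5, TLE6 and PADI6.

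The labelled states could be seen in their marker genes. The summed TPM of 7 naive markers ranged from 228 to 637 in mESC and from 9.86 to 47.1 in EpiLC, and that of 4 epiblast-like markers ranged from 6.86 to 29.3 in mESC and from 38.8 to 317 in EpiLC. Otx2, one of these 4, went against the label in the LF2 line: it was lower in XX EpiLC (10.4 to 11.5 TPM) than in XX mESC (16.3 to 22.2 TPM), and it overlapped between the states in Tet3-/- cells. The summed TPM of 6 oocyte markers was at most 4.03 and that of 6 markers of two-cell-like cells at most 2.68 in any library. TPM is a share of all RNA measured, and the non-coding RNA Rn7s1 alone held from 23.5% to 43.7% of it, so the median difference over all tested genes is given beside each contrast. Tet3 itself was low: its level was 0.761 ± 0.269 TPM (SD, n = 3) in XX mESC and 0.661 ± 0.174 TPM (SD, n = 4) in Tet3-/- mESC. In XX EpiLC it was 1.65 ± 0.386 TPM (SD, n = 3), and in Tet3-/- EpiLC 1.04 ± 0.363 TPM (SD, n = 3). In neither state did limma call the difference (adjusted p = 0.885 in mESC and 0.525 in EpiLC). A summed TPM does not show whether the remaining RNA lacks the deleted part, so it does not check the genotype.

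Pramel6 and Pramel7 were the members with the widest gap between the lines. Pramel6 stood at 94.1, 38.9 and 133 TPM in the XX mESC libraries and at 98, 24, 50.3 and 96.1 TPM in Tet3-/- mESC, but at 0.76, 0.413 and 0.993 TPM in XY mESC. In EpiLC no library exceeded 0.167 TPM, and 2 of the 3 XY EpiLC libraries were listed at 0. The 7 LF2 mESC libraries were thus the only ones of the 19 with more than 1 TPM of Pramel6. Pramel7 followed the same order, with 46.1, 35.4 and 62.1 TPM in XX mESC, from 8.92 to 36.3 TPM in Tet3-/- mESC and at most 0.298 TPM in XY mESC. In EpiLC it lay between 0.193 and 0.423 TPM in all 3 lines, and XY mESC (0.0883 to 0.298 TPM) overlapped that range. The mean of XX mESC was 123 times that of XY mESC for Pramel6 and 275 times for Pramel7. Markers of other cell types also differed between these groups. The summed TPM of 6 primitive endoderm markers was 1.54 to 8.84 in XX and 0.542 to 0.973 in XY mESC, with Gata6 (0.459 to 3.28 against 0.0102 to 0.123 TPM) and Dab2 (0.521 to 4.78 against 0.0828 to 0.208 TPM) higher in XX without overlap. Sox17 went the other way, with a mean of 0.0784 TPM in XX and 0.149 TPM in XY mESC. The rest of this list lay under 1 TPM in both groups and overlapped. The sum of 5 trophoblast markers overlapped (10.6 to 20.6 and 7.99 to 11.6 TPM), with Tfap2c and Gata3 higher and Cdx2 and Eomes lower in XX. No marker of either list was at 0 in all libraries of these groups, and their part in the gap was not tested.

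**Figure D1:**
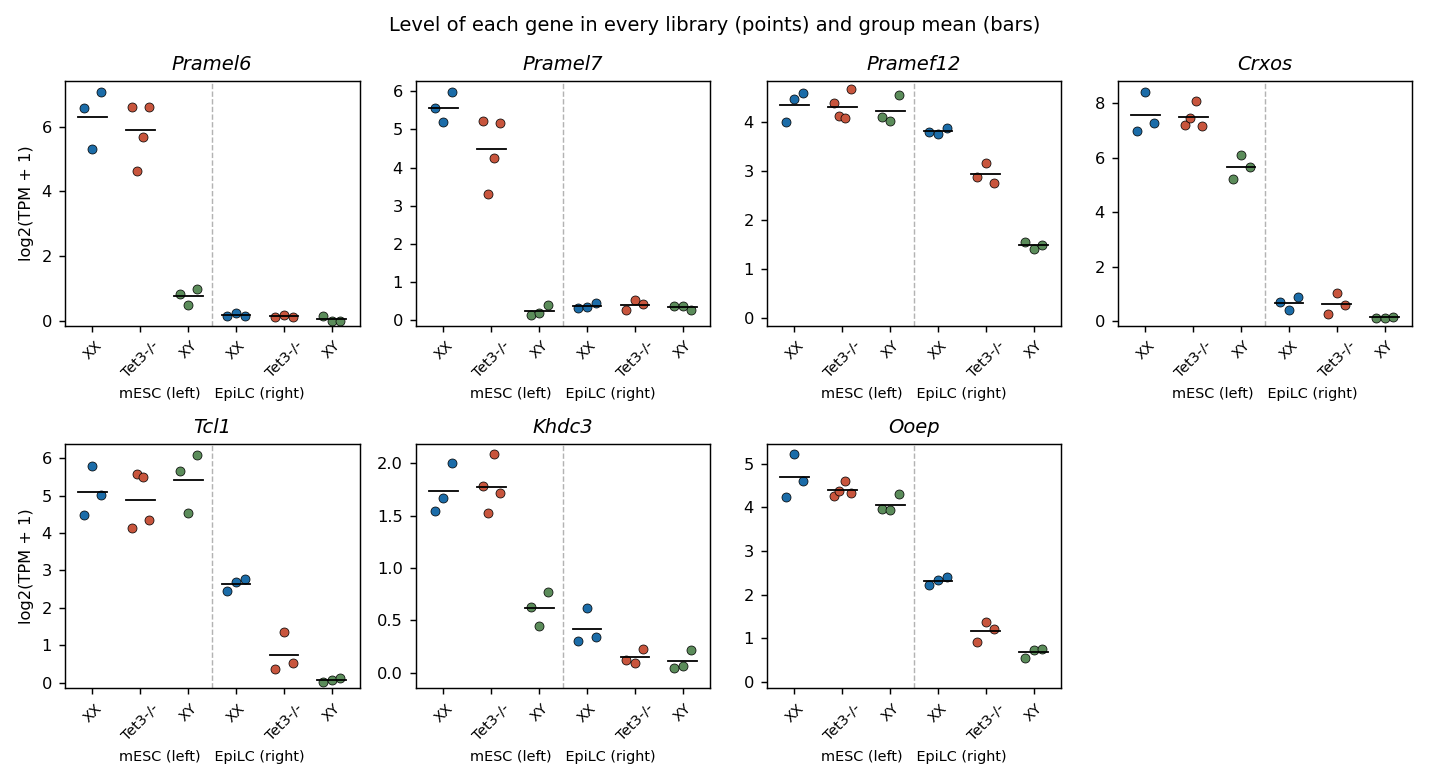
Each panel shows 1 gene, with log2(TPM + 1) on the y axis, each library as a point and each group mean as a bar, mESC to the left and EpiLC to the right of the dashed line. Pramel6 and Pramel7 are above 8 TPM only in the XX and Tet3-/- mESC libraries, whereas Pramef12, Tcl1 and Ooep step down from XX through Tet3-/- to XY in EpiLC.

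Pramef12, the third PRAME gene, was held at a like level in all mESC. It measured 15, 21 and 22.8 TPM in XX mESC, 16.1, 15.2 and 22.2 TPM in XY mESC and from 15.7 to 24.3 TPM in Tet3-/- mESC, and the 3 ranges overlapped. In EpiLC the groups came apart: 12.8, 12.5 and 13.7 TPM in XX, 6.3, 7.9 and 5.74 TPM in Tet3-/-, and 1.91, 1.66 and 1.8 TPM in XY. XX EpiLC thus kept 66.3% of their mESC mean, Tet3-/- EpiLC 34.9% and XY EpiLC 10.1%. In RefSeq this gene carries the symbol Pramel13, and an antisense gene, Pramef12os, overlaps it but reached only 0.268 TPM in any library.

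Crxos had the highest mESC level of the 7 genes and was nearly gone in EpiLC of every line. It stood at 125, 337 and 155 TPM in XX mESC, from 144 to 270 TPM in Tet3-/- mESC and at 36.4, 67.4 and 49.1 TPM in XY mESC, so the XY libraries lay below all LF2 libraries. In EpiLC it measured 0.65, 0.327 and 0.845 TPM in XX, from 0.212 to 1.07 TPM in Tet3-/- and from 0.0885 to 0.133 TPM in XY. These were 0.295%, 0.327% and 0.207% of the mESC mean in XX, Tet3-/- and XY cells.

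Tcl1 showed no gap between the lines in mESC and its widest gap in EpiLC. The mESC levels overlapped, at 21.3, 54.7 and 31.3 TPM in XX, 49.1, 22.2 and 66.8 TPM in XY and from 16.4 to 46.7 TPM in Tet3-/- libraries. In EpiLC, Tcl1 remained at 4.49, 5.4 and 5.77 TPM in XX. In Tet3-/- EpiLC it was at 0.295 TPM (#1), 1.57 TPM (#3) and 0.43 TPM (#4), and in XY EpiLC at 0.0465 TPM, 0.0839 TPM and 0.0161 TPM. No library of any of these 3 groups overlapped another group, and the XX EpiLC mean was 107 times the XY mean.

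Of the KH-domain pair, Ooep was the more abundant. Its mESC levels were 17.9, 36.5 and 23.2 TPM in XX, from 18.1 to 23.4 TPM in Tet3-/- and 14.6, 14.3 and 18.7 TPM in XY, and all 3 ranges overlapped. With median-ratio scaling, Ooep in XX mESC (27 to 34.6) lay above that in Tet3-/- (17.5 to 22.8) and XY mESC (13.5 to 19.4). In EpiLC it repeated the order of Tcl1 and Pramef12, with 3.65, 4.08 and 4.25 TPM in XX, 0.87, 1.6 and 1.31 TPM in Tet3-/- and 0.469 to 0.694 TPM in XY. Khdc3 was low throughout: 1.91 to 3 TPM in XX mESC, 1.87 to 3.24 TPM in Tet3-/- mESC and 0.358 to 0.709 TPM in XY mESC, where the XY libraries lay below the LF2 libraries. In EpiLC Khdc3 was under 1 TPM everywhere, at most 0.535 TPM, and the gene shares sequence on its own strand with the gene model Gm20509, which reached 0.149 TPM.

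**Figure D2:**
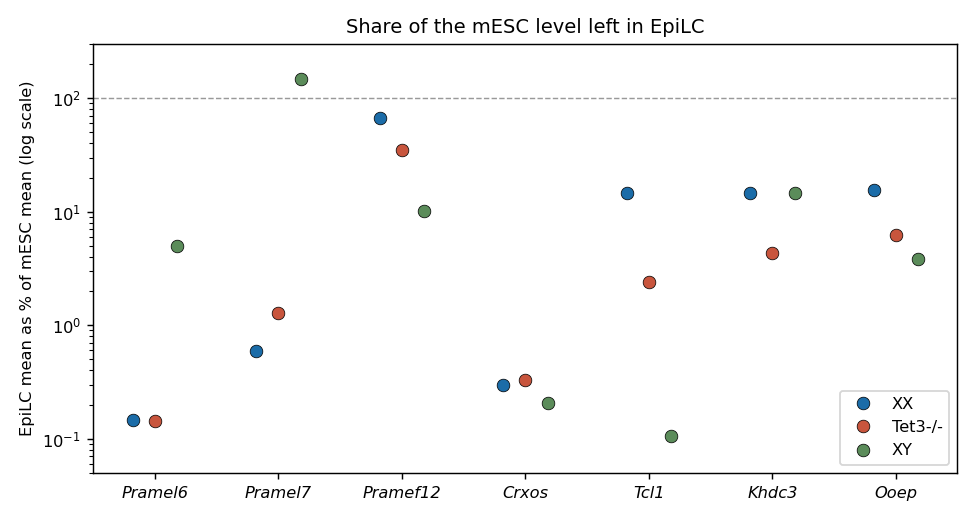
The mean level in EpiLC is shown as a percentage of the mean level in mESC, on a log axis, for each gene and line; the dashed line marks no difference. XX cells kept more of Pramef12, Tcl1 and Ooep (66.3%, 14.6% and 15.4%) than Tet3-/- cells (34.9%, 2.41% and 6.28%) and XY cells (10.1%, 0.106% and 3.82%), while Crxos was under 1% in all 3 lines; the XY points of Pramel6 and Pramel7 compare values that are all under 1 TPM.

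Counted over the members, EpiLC libraries lay below all mESC libraries of their line for 7 of 7 genes in XX cells, a pattern that 17.1% of all tested genes showed, and for 7 of 7 in Tet3-/- cells, against 21.5%. In XY cells it held for 6 of 7 genes, against 12.1%, and Pramel7 overlapped. These counts follow from how the genes were picked. The median log2(TPM + 1) difference of the 7 genes was -2.46 in XX, -4.09 in Tet3-/- and -2.74 in XY cells, and that of all tested genes was 0.14, -0.13 and 0.54. Between the lines, XX mESC lay above all XY mESC for 4 of 7 genes (Pramel6, Pramel7, Crxos and Khdc3), against 9.52% of tested genes. With median-ratio scaling Ooep did so too. In EpiLC XX lay above XY for 5 of 7 (Pramef12, Crxos, Tcl1, Khdc3 and Ooep), against 9.91%. The medians of all tested genes were -0.19 in mESC and -0.59 in EpiLC, so on the TPM scale the median gene was lower in XX while these members were higher. The naive markers moved with the EpiLC difference: their sum was 40.7 to 47.1 TPM in XX EpiLC and 9.86 to 10.8 TPM in XY EpiLC, and their part in it was not tested. In these bulk samples, fewer cells that express a gene and less RNA per cell cannot be told apart.

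The genotype contrasts compared Tet3-/- with XX libraries of the same LF2 line, and since they share the XX libraries with the contrasts of lines, they are not independent of them. In EpiLC, limma called 2 of 7 members, both lower in Tet3-/-, while it called 1.08% of all tested genes and 0.955% as lower. Pramel6, Pramel7, Crxos and Khdc3 had means under 1 TPM in both EpiLC groups and were tested because of their mESC levels, so the count rests on Pramef12, Tcl1 and Ooep. Ooep fell by 1.16 on the log2(TPM + 1) scale (SE 0.22, adjusted p = 0.014), from a mean of 4 ± 0.309 TPM (SD, n = 3) to 1.26 ± 0.367 TPM (SD, n = 3), a ratio of 3.17. Tcl1 fell by 1.88 (SE 0.43, adjusted p = 0.0394), from 5.22 ± 0.657 TPM (SD, n = 3) to 0.765 ± 0.701 TPM (SD, n = 3), a ratio of 6.83. Without mutant #3 that ratio was 14.4 and the Tet3-/- EpiLC mean was 1.14% of the mESC mean in place of 2.41%. Pramef12 had a difference of -0.88 (SE 0.22, adjusted p = 0.0595 in limma), with means of 13 and 6.65 TPM, and did not pass the threshold of 0.05. Khdc3 differed by -0.27 (SE 0.17, limma adjusted p = 0.715), with means of 0.344 and 0.107 TPM, a ratio of 3.22. Its difference was -1.07 with a pseudocount of 0.1 and -0.65 with TPM rescaled over protein-coding genes, since the pseudocount of 1 is larger than these levels. The 4 genes were lower in all 3 Tet3-/- EpiLC libraries than in any XX EpiLC library, as were 12.4% of tested genes. Pramel6, Pramel7 and Crxos overlapped between the genotypes in EpiLC, at differences of -0.04 (SE 0.43), 0.03 (SE 0.35) and -0.03 (SE 0.34), with all 3 genes near or under 1 TPM. At such levels log2(TPM + 1) holds any difference near zero, so these values do not show that the genotypes were alike; with a pseudocount of 0.1 they were -0.23, 0.09 and -0.14. The median difference was -0.27 over the members and -0.07 over all tested genes.

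The EpiLC calls depended on single libraries. The Ooep call was lost without XX replicate 2 (limma adjusted p = 0.0857), XX replicate 3 (0.097) or mutant #1 (0.063). The Tcl1 call was lost without XX replicate 1 (limma adjusted p = 0.0896), 2 (0.173) or 3 (0.197) and without mutant #1 (0.137) or #4 (0.131), and it was kept without mutant #3 (0.0203). Over 14 alternative fits the differences of Ooep, Tcl1 and Pramef12 stayed negative, and their limma adjusted p ranged from 7.35e-06 to 0.119 (Ooep, called in 10), from 0.000765 to 0.197 (Tcl1, called in 6) and from 0.00542 to 0.295 (Pramef12, called in 4). With library scales set by median ratios, 3 members were called: Pramef12 at -0.78 (limma adjusted p = 0.00987), Tcl1 at -1.92 (0.00251) and Ooep at -1.11 (0.000256).

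**Figure D3:**
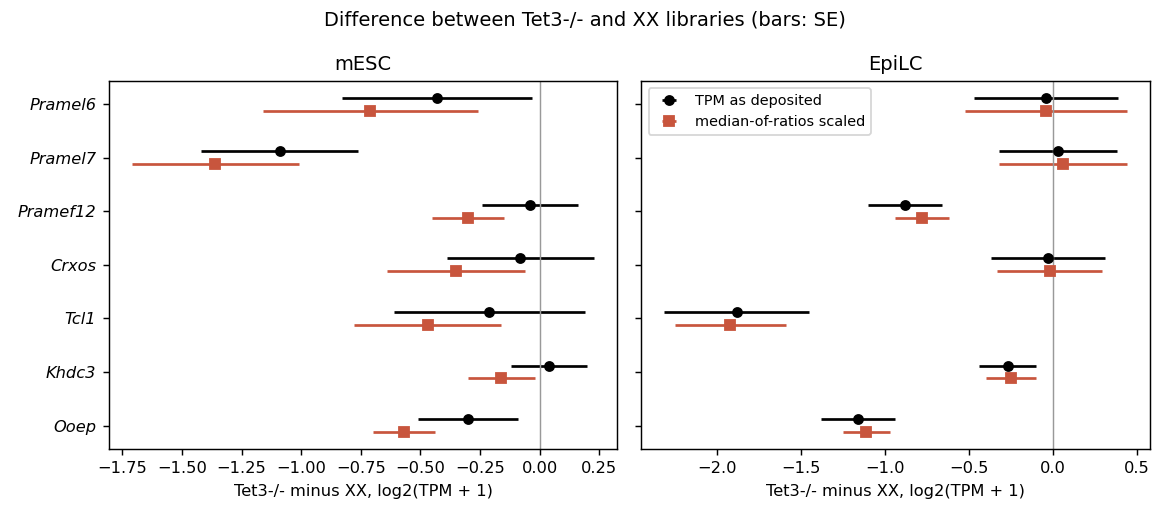
The x axes show the difference between Tet3-/- and XX group means in log2(TPM + 1), in mESC on the left and EpiLC on the right, with bars of 1 SE; circles use TPM as deposited and squares use TPM scaled by median ratios. In EpiLC, Tcl1, Ooep and Pramef12 lie at -1.88, -1.16 and -0.88; Pramel6, Pramel7, Crxos and Khdc3 had EpiLC means under 1 TPM, where this scale cannot show a large difference.

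The 3 mutant EpiLC libraries were not alike. Mutant #3 had the highest Tcl1 (1.57 TPM), Ooep (1.6 TPM) and Pramef12 (7.9 TPM) of the 3. It also had the highest naive marker sum, 30.1 TPM beside 9.99 TPM in #1 and 12.2 TPM in #4, and the highest epiblast-like marker sum, 146 TPM beside 42.4 and 41.3 TPM. Its Fgf5 level was 43.7 TPM, beside 3.6 TPM in #1 and 3.58 TPM in #4. Its trophoblast marker sum was 26.5 TPM beside 4.68 and 4.56 TPM, and its primitive endoderm marker sum 10.7 TPM beside 4.9 and 2.93 TPM. Most of that trophoblast sum came from Eomes (17.4 TPM) and Tfap2c (6.03 TPM). Cdx2 and Gata3 were at most 1.33 and 1.82 TPM in any Tet3-/- EpiLC library, so the sum does not show trophoblast cells. Protein-coding genes held 39.2% of its TPM and 29.7% in both others. XX EpiLC had naive sums of 40.7 to 47.1 TPM, above all mutant libraries. Of the 7 naive markers, limma called Esrrb lower in Tet3-/- EpiLC, at -1.70 (SE 0.34, adjusted p = 0.0168), and the median of the 7 was -0.71. Of the 3 pluripotency markers it called Sox2 lower, at -1.11 (SE 0.24, adjusted p = 0.0285). None of the 4 epiblast-like markers was called; of the 6 oocyte markers only 1 was tested and of the 6 two-cell-like markers 0, so no call could be made for the rest. With median-ratio scaling limma called 5 of 7 naive markers lower (Zfp42, Esrrb, Tfcp2l1, Nr5a2 and Klf2, from -0.65 to -1.65), 2 of 3 pluripotency markers lower (Sox2 and Nanog) and 2 of 4 epiblast-like markers higher (Fgf5 at 1.59 and Otx2 at 0.66). The part of these marker differences in the lower Tcl1 and Ooep was not tested.

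In mESC limma called 0 of 7 members between Tet3-/- and XX, while 0.601% of all tested genes were called, and 1 member had an unadjusted p under 0.05. That member was Pramel7, with a difference of -1.09 (SE 0.33, adjusted p = 0.175) and means of 24.5 ± 13.3 TPM (SD, n = 4) in Tet3-/- and 47.9 ± 13.4 TPM (SD, n = 3) in XX mESC. The other 6 members had limma differences between -0.43 (Pramel6, SE 0.40) and 0.04 (Khdc3, SE 0.16, or -0.16 with median-ratio scaling). For all 7 genes the libraries of the 2 genotypes overlapped at the deposited scale, while of all tested genes 0.982% lay lower and 8.23% higher in Tet3-/- mESC without overlap. With median-ratio scaling Ooep lay lower in Tet3-/- mESC without overlap. The median was -0.21 over the members and 0.19 over all tested genes. With median-ratio scaling limma called 2 members, Pramel7 at -1.36 (adjusted p = 0.0455) and Ooep at -0.57 (adjusted p = 0.0295).

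The difference between the Tet3-/- and the XX change of state is built from the changes that led to the choice of these genes, so it is given as a description. It was -1.68 (SE 0.59) for Tcl1, -0.86 (SE 0.31) for Ooep, -0.84 (SE 0.30) for Pramef12 and 1.12 (SE 0.48) for Pramel7 in log2(TPM + 1). For Crxos, Pramel6 and Khdc3 it was 0.05 (SE 0.46), 0.39 (SE 0.58) and -0.31 (SE 0.23). The median was -0.31 over the members and -0.28 over all tested genes. In limma 0.174% of all tested genes passed for this difference and 0 of 7 members did (4 at an unadjusted p under 0.05), from which nothing is read.

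Within the 7 LF2 mESC libraries the members did not vary together. XX replicate 2 and mutants #2 and #3 had the 3 lowest levels of Pramel6 (38.9, 24 and 50.3 TPM, against 94.1 to 133 TPM in the other 4) and the 3 highest levels of Crxos (337, 175 and 270 TPM, against 125 to 155 TPM). The same 3 libraries had the highest Tcl1, at 54.7, 46.7 and 44.5 TPM, against 16.4 to 31.3 TPM in the others. Pramel7 did not split in this way, since XX replicate 2 (35.4 TPM) lay above mutant #4 (34.8 TPM). With median-ratio scaling Crxos did not either, since XX replicate 1 (209 scaled TPM) lay above mutant #2 (186), while Pramel6 and Tcl1 still did. The 3 libraries were grouped after their values were seen. The ratios given next use the same genes, so their split follows from the grouping and adds no support. Within a library, Tcl1 was 0.884 to 1.95 times Pramel6 in these 3 libraries and 0.167 to 0.235 times in the other 4. The Crxos to Pramel6 ratio was 5.37 to 8.66 in the 3 and 1.17 to 1.49 in the 4. Each genotype had libraries of both kinds. Protein-coding genes held 43.6%, 36.6% and 37.9% of TPM in the 3 libraries and 22.8% to 36.1% in the others. The summed TPM of the 6 markers of two-cell-like cells was 0.163, 0.316 and 0.142 in the 3 libraries and 0.723 to 2.68 in the others. The sum of the 6 primitive endoderm markers was 1.54, 0.928 and 1.13 TPM in the 3 libraries and 4.14 to 8.84 TPM in the others, and that of the 3 pluripotency markers 789, 602 and 663 TPM against 363 to 587 TPM. The part of these measures in the pattern was not tested.

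**Figure D4:**
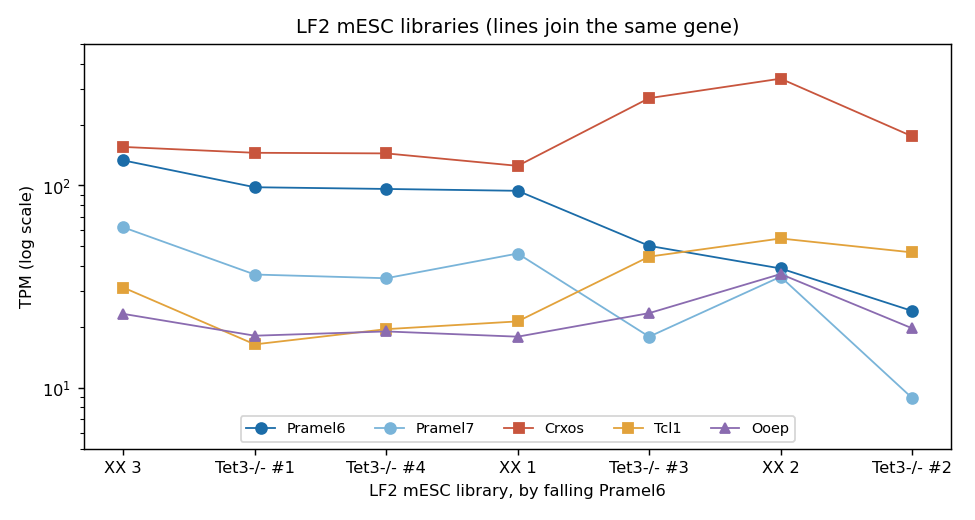
TPM of 5 members, on a log axis, in the 7 mESC libraries of the LF2 line, ordered along the x axis by falling Pramel6; lines join values of 1 gene and carry no order of their own. Pramel6 falls from 133 to 24 TPM across the libraries, while Crxos and Tcl1 have their 3 highest values in the 3 libraries with the least Pramel6. These are TPM as deposited, and with median-ratio scaling this no longer held for Crxos.

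Pramel6 and Pramel7 lie side by side on chromosome 2, with 9471 bases between them and opposite strands (GRCm38, chr2:87506565-87510872 on the plus and chr2:87489087-87497093 on the minus strand). Their log2(TPM + 1) values had a Pearson correlation of 0.988 over the 19 libraries, the highest of the 21 pairs of members. Next came Tcl1 with Ooep (0.973), which lie on chromosomes 12 and 9, and the lowest was Pramel7 with Pramef12 (0.563). These values describe 19 libraries that share states, lines and the TPM scale. The other members lie at chr4:144391674-144408464 (Pramef12, minus strand), chr7:15882617-15904020 (Crxos, plus), chr12:105216750-105222793 (Tcl1, minus), chr9:73101836-73104438 (Khdc3, plus) and chr9:78376109-78378725 (Ooep, minus).

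The sequences upstream of 5 members are shown because they differ in CpG, the dinucleotide whose methylated form TET3 acts on, although no methylation was measured here. They come from RefSeq promoters of GRCm38.p6, in which all 7 members were found, and run 5′ to 3′ on the gene's strand, limited to bases before the start site that lie in no exon of the gene. The Pramel7, Tcl1 and Ooep stretches thus end 26, 56 and 137 bases before the start site. Those of Tcl1 and Ooep hold 5 and 2 CpG, fewer than the 11 and 15 of the whole windows described below. Capitals mark each CpG, except in Crxos, which has none and where they mark a match to the STAT motif TTCNNNGAA. The positions are chr2:87506315-87506564 (Pramel6), chr2:87492445-87492668 (Pramel7), chr7:15901396-15901645 (Crxos), chr12:105222794-105222987 (Tcl1) and chr9:78378726-78378838 (Ooep).
Pramel6: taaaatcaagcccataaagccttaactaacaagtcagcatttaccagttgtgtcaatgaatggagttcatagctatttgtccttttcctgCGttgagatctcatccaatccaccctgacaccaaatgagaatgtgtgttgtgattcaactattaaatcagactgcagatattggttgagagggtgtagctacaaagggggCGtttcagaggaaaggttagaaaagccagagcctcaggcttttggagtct
Pramel7: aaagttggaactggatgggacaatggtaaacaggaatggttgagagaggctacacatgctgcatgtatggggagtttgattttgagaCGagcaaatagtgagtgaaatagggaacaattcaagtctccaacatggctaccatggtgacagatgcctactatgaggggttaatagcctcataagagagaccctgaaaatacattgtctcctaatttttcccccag
Crxos: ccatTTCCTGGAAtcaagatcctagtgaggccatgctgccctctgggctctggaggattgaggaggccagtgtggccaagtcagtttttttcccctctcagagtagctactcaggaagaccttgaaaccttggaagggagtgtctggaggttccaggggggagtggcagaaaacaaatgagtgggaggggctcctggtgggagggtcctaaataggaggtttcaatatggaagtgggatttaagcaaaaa
Tcl1: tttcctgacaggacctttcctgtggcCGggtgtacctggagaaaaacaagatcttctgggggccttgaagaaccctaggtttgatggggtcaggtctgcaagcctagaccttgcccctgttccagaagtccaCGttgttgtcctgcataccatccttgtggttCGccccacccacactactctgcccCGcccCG
Ooep: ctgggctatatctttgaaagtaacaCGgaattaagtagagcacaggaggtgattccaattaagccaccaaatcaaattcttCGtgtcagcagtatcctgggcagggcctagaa
The Pramel7 stretch lies within the genomic span of 3 non-coding transcripts of that gene. The Crxos stretch precedes the start of the 571-base coding transcript that held most of that gene's TPM in mESC, within the span of other Crxos transcripts.

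In the whole RefSeq window of 250 bases before to 50 bases after the start, Crxos and Khdc3 held 0 CpG, a count found in 5.43% of 32851 promoters. Pramel7 held 1 (14.1% of promoters had as many or fewer), Pramel6 held 3 (31.4%), Pramef12 held 7 (51.4%), Tcl1 held 11 (60.4%) and Ooep held 15 (67%), and the median of all promoters was 7. The only Ooep transcript measured starts 137 bases upstream of the RefSeq start. Only 2 of the 15 CpG of Ooep thus lie before that transcript. The Pramel7 window lies at the start of its coding transcript, which held 46.6% of the gene's TPM in XX mESC. The non-coding transcripts of Pramel7 start further upstream, and CpG was not counted there. The Crxos count is that of the window shown above; RefSeq lists 2 further starts of Crxos, whose windows held 2 and 4 CpG. Of 4 motifs searched on both strands in the 9 windows of these genes, the E-box CACGTG, the nuclear receptor core AAGGTCA, the STAT motif TTCNNNGAA and the TATA box TATAAA, the only match was the STAT motif of Crxos shown above, which begins at position -246 from the start, and 8.3% of all promoters of this length held that motif. The other 3 motifs were in 7.15%, 4.72% and 13.6% of promoters.

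In XX and Tet3-/- mESC, less TPM of Pramel6 and Pramel7 was assigned to their protein-coding than to their non-coding transcripts. In XX mESC the coding transcripts held from 37.6% to 44.7% of the TPM of Pramel6 and from 44.2% to 47.9% of that of Pramel7, and the rest lay on short non-coding transcripts of these genes. The coding transcripts of Pramel6 alone measured 17.4 to 50.1 TPM in XX mESC, 10.1 to 41.2 TPM in Tet3-/- mESC and 0.0822 to 0.346 TPM in XY mESC, so the gap between the lines did not rest on the non-coding ones. Where Pramel7 was low, a non-coding transcript of 675 bases dominated: it held 16.4% of the gene's TPM in XX mESC but 72.1% in XY mESC and 67.9% in XX EpiLC, and the coding transcript was listed at 0 in all 3 XY EpiLC libraries. Pramef12, Khdc3 and Ooep had all their TPM on coding transcripts. The 571-base transcript held 86% of Crxos in XX mESC and 73.9% in XY mESC, with no overlap between libraries (82.8% to 88.3% and 71.6% to 76.7%).

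Among relatives and partners, limma called few genes between Tet3-/- and XX. Of 10 other PRAME genes and the antisense Pramef12os, 3 were tested, Pramef8, Pramel3 and Pramef17, and none was called in either state or in the difference of changes, with differences of 0.61, 0.71 and 0.08 in mESC and of 0.09, 0.07 and 0.01 in EpiLC. Pramef17 was like Crxos in time: 4.35 to 7.31 TPM in XX mESC and 4.47 to 8.62 TPM in XY mESC, and at most 0.0727 TPM in any EpiLC library. Pramef8 overlapped between XY mESC (8.42 to 13.3 TPM) and XY EpiLC (8.86 to 12.8 TPM). It was lower in EpiLC without overlap in XX cells (9.52 to 13.4 against 5.16 to 6.85 TPM) and in Tet3-/- cells (13.7 to 22.4 against 4.97 to 10.5 TPM). Pramel3 matched the gap between the lines of Pramel6 at a lower level, with 0.176 to 2.16 TPM in XX mESC and at most 0.0354 TPM in XY mESC.

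Of 6 further genes of the maternal complex, 3 were tested (Tle6, Nlrp4f and Zbed3) and none was called between Tet3-/- and XX. Tle6, whose protein binds OOEP, and Nlrp4f were lower in EpiLC than in mESC of every line without overlap, at 0.824 and 6.18 TPM for Tle6 in XX cells, whereas Zbed3 was higher in EpiLC, at 4.94 and 2.28 TPM. None of the 5 Tcl1b genes reached a group mean of 1 TPM. Of the 8 partners of TCL1 and PRAMEL7, all were tested and none was called. Uhrf1, whose protein is the target of PRAMEL7, measured 33.3 to 93.2 TPM in XX mESC and 41.3 to 143 TPM in XY mESC, which overlapped. These are RNA levels, and UHRF1 protein was not measured, so they do not bear on its loss through PRAMEL7.

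Dppa5a, a KH-domain gene of pluripotent cells, is a neighbour of Ooep on chromosome 9 (chr9:78367052-78368177, 7931 bases away) and was the only tested gene of 4 in its list. Its EpiLC level was 751 to 819 TPM in XX, 194 to 322 TPM in Tet3-/- and 96.4 to 98.5 TPM in XY libraries. limma called it lower in Tet3-/- than in XX EpiLC, at -1.73 (SE 0.25, adjusted p = 0.00161). The order XX, Tet3-/-, XY was that of Ooep, from the same libraries. In mESC Dppa5a measured 1499 to 3145 TPM over the XX libraries and overlapped between genotypes, with a difference of -0.03.

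Of 8 homeobox genes, Otx2 and Obox6 were tested, and limma called neither between the genotypes at the deposited scale. With median-ratio scaling Obox6 was called lower in Tet3-/- mESC (-0.71, adjusted p = 0.00291) and Otx2 higher in Tet3-/- EpiLC (0.66, adjusted p = 0.0286). Both were higher in XX than in XY mESC without overlap: Obox6 measured 3.95 to 5.2 against 0.194 to 0.404 TPM, and Otx2 16.3 to 22.2 against 0.845 to 2.62 TPM.

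The genes whose log2(TPM + 1) was most like each member over the 19 libraries were different for the LF2 mESC genes and for the genes kept in XX EpiLC. For Pramel6 they were Acpp, Ms4a5 and Wfdc15a (Pearson correlation 0.992, 0.991 and 0.990), and for Pramel7 Gm12171, Tbx15 and Gata1 (0.993, 0.985 and 0.984). For Crxos they were Gm13580, C130074G19Rik and Slc16a9 (0.991, 0.990 and 0.989), and for Khdc3 Olfr153, Samd7 and Dcstamp (0.974, 0.972 and 0.972). For Tcl1 they were Tfcp2l1, Fam25c and Hsf2bp (0.989, 0.984 and 0.977), for Ooep Phf11d, Fam25c and Hsf2bp (0.989, 0.988 and 0.987), and for Pramef12 Triml2, AU018091 and Rab11fip5 (0.986, 0.975 and 0.971). Tfcp2l1, a transcription factor of naive cells, had means of 10, 3.35 and 1.24 TPM in XX, Tet3-/- and XY EpiLC, and Triml2 24, 9.85 and 1.11 TPM.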

How the data were processed

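RNA was from 19 stranded, ribosomal RNA-depleted total RNA libraries, per the labels' protocols. The authors deposited TPM per transcript. FastQC 0.11.7, Trimmomatic 0.35, Salmon 1.1.0 and GRCm38 are named in the submitters' processing notes, and the annotation is not given in the sources used here. Each column summed to 1000000, and TPM keeps no sequencing depth, so depth is unknown and precision rests on the spread within groups. Deposited TPM of 140948 transcripts was summed per gene with GENCODE M21 (139357 matched with version, 495 without, and 1096 with at most 0.215% of a library's TPM did not match). Differences are of log2(TPM + 1), so those of genes with low TPM are understated. limma 3.58.1 in R 4.3.3 (lmFit, contrasts.fit, eBayes with a trend) was fitted to all 19 libraries, on 14972 genes that reached TPM 1 in 3 or more libraries, with two-sided p adjusted by the Benjamini-Hochberg method per contrast and called under 0.05. The fit was tested on simulated data. Groups that do not overlap are those in which every library of one lies beyond every library of the other. The median-ratio scaling divided each library by its median ratio to the geometric mean. The labels name no batch. Named were the members, the 3 genes most correlated with each, and genes of the lists with a group mean TPM of at least 1. The lists were other PRAME genes with the antisense Pramef12os (3 of 11 tested), the maternal complex (3 of 6) and Tcl1b genes (0 of 5). Further lists were homeobox genes (2 of 8), partners of TCL1 and PRAMEL7 (8 of 8) and KH-domain relatives (1 of 4), with marker lists for cell types. Of the primitive endoderm (2 of 6 tested), trophoblast (4 of 5) and fibroblast markers (1 of 6), none was called between Tet3-/- and XX at the deposited scale. With median-ratio scaling limma called the fibroblast marker Thy1 lower in Tet3-/- EpiLC (-0.99, adjusted p = 0.0286). Members and lists were chosen with earlier results of these data known. Protein sequences were not used here. Alternatives were another pseudocount (0.1), other filters (none, or TPM of at least 5), a replicate block, eBayes with no trend, fits restricted to the groups compared, median-ratio scaling, rescaling to nuclear protein-coding genes, and leaving out each library.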

Additional observations from a re-analysis of the deposited data

How the results depend on the processing

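The number of members called lower in Tet3-/- EpiLC, 2, became 1 with no filter, 0 in the fit of only the groups compared, and 0 to 3 when 1 library was left out (Pramef12 was the third, without mutant #3). In mESC 2 members were called with median-ratio scaling instead of 0, and 0 whichever library was left out. For the difference of changes 1 member, Ooep, was called with TPM rescaled over protein-coding genes, and 0 whichever library was left out. Genes called among all tested moved more. In mESC they numbered 90, and 55 with no filter, 26 at a TPM of at least 5, 2 in the fit of only the groups compared, 34 with a pseudocount of 0.1, 477 with median-ratio scaling, 155 with rescaled TPM, and 15 to 365 with a library left out. In EpiLC they numbered 161, and 99 at a TPM of at least 5, 11 in the fit of only the groups compared, 817 with median-ratio scaling, 655 with rescaled TPM, and 39 to 318 with a library left out. For the difference of changes they numbered 26, and 10 at a TPM of at least 5, 17 with a pseudocount of 0.1, 99 with median-ratio scaling, 89 with rescaled TPM, and 11 to 102 with a library left out. Same-numbered libraries did not deviate together in every pair (correlations from -0.44 to 0.517), so the numbers were not taken as pairs. Both ends of that range were XX against Tet3-/- mESC. For the same mutant in mESC and EpiLC the correlations were 0.271 (#1), 0.303 (#3) and -0.0202 (#4). With a replicate block 53 genes were called in mESC, 129 in EpiLC and 1 in the difference of changes. Of the members 0, 1 and 0 were called, the Tcl1 call being lost (limma adjusted p = 0.0806). Differences near zero changed sign. In mESC this was so for Khdc3 with median-ratio scaling (-0.16) and rescaled TPM (-0.14) and, with a library left out, for Khdc3 (-0.06 to 0.17), Pramef12 (-0.21 to 0.08), Crxos (-0.36 to 0.34) and Tcl1 (-0.52 to 0.15). In EpiLC it was so for Pramel7 (-0.25) and Crxos (0.13) with the replicate block, and with a library left out (-0.03 to 0.1 and -0.23 to 0.15). In the difference of changes it was so for Pramel6 with the block (-0.03) and with a library left out (-0.03 to 0.89), and for Crxos with a pseudocount of 0.1 (-0.06) and with a library left out (-0.37 to 0.34). The cause was not tested. Of the 35 described differences of the members, a pseudocount of 0.1 moved 27 by more than 1 SD, median-ratio scaling 7 and rescaled TPM 27. Leaving out a library moved 0 of 217 values by as much. In groups of 3 or 4 libraries, leaving 1 out cannot shift a difference of means by the pooled SD, so this count shows nothing about stability. Depth is unknown, so values under 1 TPM, such as those of Pramel6, Pramel7 and Khdc3 in EpiLC, carry no counting limit.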

Other observations

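The ratio of Pramel6 to Pramel7 within a library, which does not depend on the library's scale, was 2.7, 2.68, 2.81 and 2.76 in the 4 Tet3-/- mESC libraries and 2.04, 1.1 and 2.14 in the 3 XX mESC libraries. The ratio was chosen after its values were seen, so it has no test. Over protein-coding transcripts alone the ratio was 2.35, 3.04, 2.48 and 2.41 in Tet3-/- and 1.75, 1.11 and 1.69 in XX mESC, again with no overlap. The gene-level ratio thus varied little among the 4 mutant libraries, while their Pramel6 level ranged from 24 to 98 TPM.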
